A study of Mus musculus with 6 samples.

Results

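Interferon-stimulated genes are the transcripts that cells raise when they sense interferons. The 9 genes described here are Ifit1, Ifit2, Ifit3, Isg15, Irf7, Oasl2, Ifi44, Usp18 and Bst2, and every probe that the array's annotation assigns to one of these symbols was taken. Of the 9 genes, 8 had a named probe, 13 probes in all among the 45281 on the array, and no probe was named for Ifi44. A total of 9 probes from 7 genes passed the detection filter, which asked for a detection p under 0.01 on 2 or more arrays, among 16749 probes from 9837 named genes that did. The only Ifit1 probe was detected on 0 of 6 arrays.

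The tissue was thoracic aorta of mice on a C57Bl/6 background, aged 12 weeks at the start. Transgenic mice (TG SM-CaMKIIN, here TG) carried CaMKIIN, a peptide inhibitor of the calcium/calmodulin-dependent kinase CaMKII, expressed in smooth muscle only, and wild-type littermates (WT) did not. Osmotic pumps delivered angiotensin II (Ang-II), a vasoconstrictor hormone, at 1.25 ug/kg/min in 0.9% saline, or 0.9% saline alone, for 14 days. There were 2 arrays of TG mice with Ang-II, 2 of WT mice with Ang-II, 1 of TG mice with saline and 1 of WT mice with saline, each group drawn from 5 mice whose RNA was pooled. The titles call the 2 Ang-II arrays of each genotype biological replicates, but which mice entered each array is not in the labels. The p-values therefore cover the spread between arrays alone. Whether that spread is biological or technical cannot be told. Each saline group has a lone array, to which the tests gave the spread of the Ang-II groups, and the small number of arrays limits all differences below.

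In the type I pathway, interferon alpha or beta binds the receptor Ifnar1 and Ifnar2, and the kinases Jak1 and Tyk2 activate a complex that holds Stat2 and Irf9 and binds the interferon-stimulated response element (ISRE) in target promoters. Interferon gamma signals through Ifngr1 and Ifngr2 to a different promoter element, the gamma-activated site (GAS). In the vessel wall, smooth muscle, endothelial cells, fibroblasts and resident macrophages all carry interferon receptors.

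The products of the 9 genes have different tasks in this response. Ifit1, Ifit2 and Ifit3 bind foreign RNA or partner proteins and limit viral translation. Isg15 is a small ubiquitin-like protein that is attached to other proteins, and Usp18 removes it and also blocks the type I receptor, which damps the signal. Irf7 is a transcription factor that drives interferon genes, Oasl2 belongs to the family of oligoadenylate synthetases, and Bst2 (tetherin) holds budding viruses at the cell surface. Ifi44 is a cytoplasmic protein induced by type I interferon.

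The promoters show the element through which this response runs, and 4 are printed because they hold it. A core of the ISRE, spelled GAAA, any 2 bases and GAAA again, and searched on both strands, lay in the window of 250 bases before to 50 after the gene start for 4 of the 8 members with a promoter in the RefSeq table (GRCm38.p6): Ifit1, Ifit3, Isg15 and Bst2. Among all 32851 promoters of the RefSeq set, 3.44% held it, and among the 27025 genes of that set 3.99% did. Among the other type I interferon-stimulated genes listed here it lay in 18 of 44 (40.9%). Capitals mark the matched bases, which overlap one another in Isg15 and Bst2, each sequence runs 5′ to 3′ on the gene's own strand, and all lie before the gene start.
Ifit1, chr19:34640755-34640843, plus strand: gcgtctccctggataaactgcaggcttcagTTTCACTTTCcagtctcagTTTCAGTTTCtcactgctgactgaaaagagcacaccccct
Ifit3, chr19:34583343-34583446, plus strand: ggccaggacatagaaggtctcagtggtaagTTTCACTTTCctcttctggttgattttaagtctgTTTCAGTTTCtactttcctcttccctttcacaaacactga
Isg15, chr4:156200845-156200926, minus strand: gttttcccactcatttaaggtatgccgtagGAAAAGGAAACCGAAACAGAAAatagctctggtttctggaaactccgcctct
Bst2, chr8:71537557-71537632, minus strand: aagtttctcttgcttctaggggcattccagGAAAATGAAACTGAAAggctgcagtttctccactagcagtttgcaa

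The last matched base lay 76 and 95 bases before the start in Ifit1, 113 and 147 in Ifit3, 57 in Isg15 and 115 in Bst2. Ifit1 and Ifit3 thus carried 2 separate matches each, in the reverse orientation, while Isg15 and Bst2 carried runs of overlapping matches. The GAS core, TTCNNNGAA, lay in the window of 2 of the 8 members, Ifit2 and Bst2. It lay in 9.55% of all genes of the RefSeq set and in 6 of 44 (13.6%) of the other type I genes. A match describes these letters and is not a measured binding site. The windows of Irf7, Oasl2 and Ifi44 held neither core.

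Detection was similar over the arrays, with 33.994% to 35.501% of probes detected on each. The WT saline array had the highest median raw signal, 130.5 against 110 to 118 on the other 5, before normalization brought the arrays to one distribution. Of the kept member probes, each array read 21 to 52 beads, and the standard error over beads was 3.46% to 12% of the raw signal. All 10 listed smooth muscle markers of the aortic wall were detected and measured, with a mean log2 level of 11.17 to 11.71 over the arrays. WT saline was the highest array for 6 of these 10, against 23.2% of all genes. With Ang-II 1 rose and 0 fell in TG, and 0 rose and 3 fell in WT (median -0.63). Among all genes, 5.23% rose and 1.56% fell in TG, and 6.09% rose and 2.63% fell in WT. Markers of other tissues also moved with the groups. All 8 measured fat cell markers and 5 of 6 red cell markers were at their lowest on the WT saline array, against 19.8% of all genes. All 10 heart muscle markers were higher in TG than in WT under Ang-II. In pooled tissue, fewer cells of a type and less RNA per cell cannot be told apart.

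The WT saline array also stood apart for the members themselves. It was the highest of the 6 arrays for 5 of the 7 measured members, against 23.2% of all genes. Among the 30 measured other type I interferon-stimulated genes, it was the highest for 7 (23.3%). In that count the wider list thus lay near all genes. Its mean level, centred on its mean over the 6 arrays, was 0.059 on WT saline. It was 0.053 and 0.054 on WT Ang-II, -0.096 on TG saline, and -0.012 and -0.059 on TG Ang-II. For Isg15 and Usp18 the WT saline array lay above the next array by more than the whole range of the other 5, which held for 2.69% of all genes. The mean log2 level over the 7 members was 8.02 and 7.97 on the TG Ang-II arrays, 7.98 and 8.0 on the WT Ang-II arrays, 8.0 on the TG saline array and 8.37 on the WT saline array. Outside the WT saline array, the mean of the members thus stayed within 0.05 on the log2 scale. The comparisons that do not use that array are the Ang-II response in TG and TG against WT under Ang-II, and all others rest on it.

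**Figure D1:**
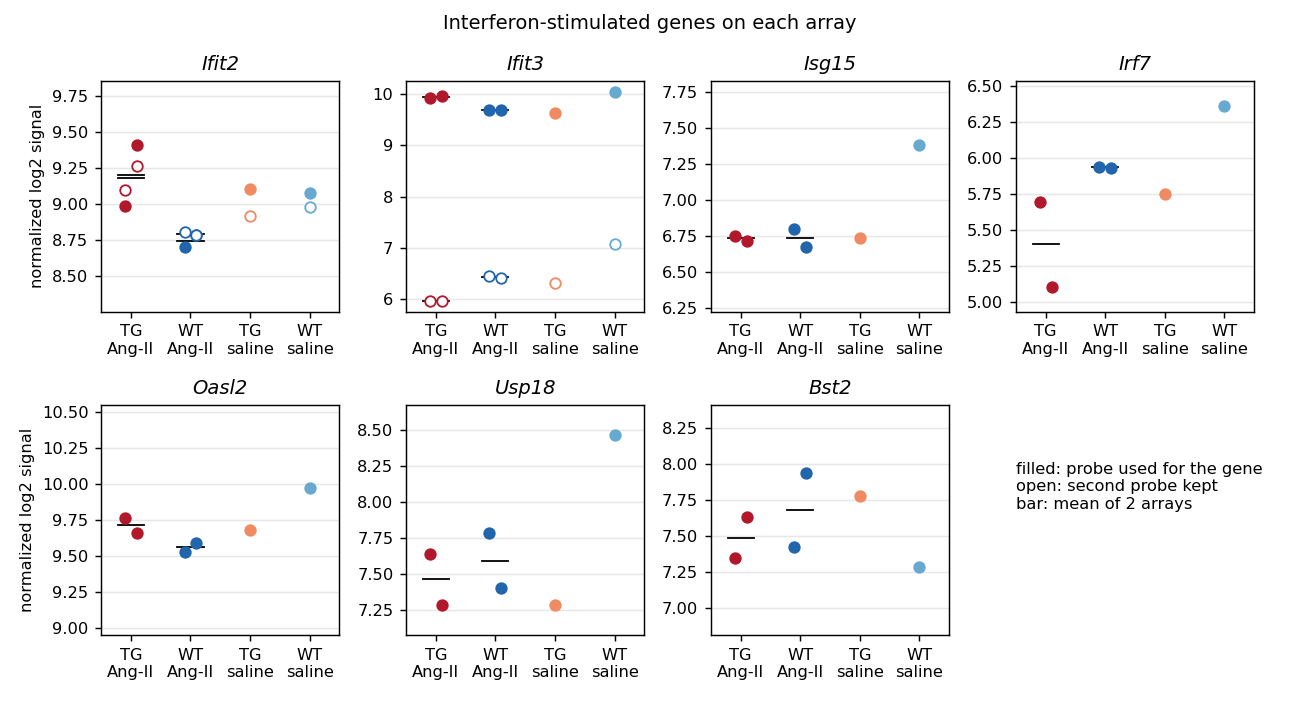
Normalized log2 signal (y axis) of the 7 measured interferon-stimulated genes on each of the 6 arrays, by group (x axis). Filled points are the probe used for the gene, open points the second kept probe of Ifit2 and Ifit3, and bars the mean of 2 arrays; the WT saline array is the highest for Ifit3, Isg15, Irf7, Oasl2 and Usp18.

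Usp18, which removes Isg15 from proteins, showed the widest separation between the saline arrays. On the log2 scale it read 7.64 and 7.29 on the TG Ang-II arrays, 7.78 and 7.41 on the WT Ang-II arrays, 7.29 on the TG saline array and 8.47 on the WT saline array. The WT saline array was thus high, and the other 5 arrays overlapped between genotypes and treatments. The raw signal before normalization was 254.7 for TG saline, with a standard error over beads of 4.36%, and 571.7 for WT saline, with 4.94%. The difference of TG minus WT under saline was -1.18 ± 0.28 on the log2 scale (SE, 1 array each; 95% interval -1.86 to -0.50), a 2.27-fold lower level in TG with an adjusted p of 0.162 in limma. In WT, Ang-II minus saline was -0.87 ± 0.24, with an adjusted p of 0.0800 in limma. The other Usp18 probe was detected on 0 of 6 arrays.

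Isg15, the ubiquitin-like modifier, was likewise highest on the WT saline array. Its log2 level was 6.75 and 6.71 with Ang-II in TG, 6.79 and 6.67 with Ang-II in WT, 6.73 with saline in TG and 7.38 with saline in WT. All arrays but WT saline lay within 0.12 of one another. The difference of WT Ang-II minus WT saline was -0.65 ± 0.16 (95% interval -1.03 to -0.26), with an adjusted p of 0.0595 in limma. Under Ang-II, TG minus WT was 0.00 ± 0.13, with a 95% interval from -0.31 to 0.31, so a difference of up to 0.31 in either direction was not excluded by these arrays.

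The enzymes that attach Isg15 were measured for 3 of the 4 genes listed: Uba7, the activating enzyme, Ube2l6, the conjugating enzyme, and Trim25, a ligase. None of these 3 passed in either genotype alone. Averaged over genotypes, Trim25 rose with Ang-II by 0.53 ± 0.11 on the log2 scale (adjusted p = 0.0254 in limma), with 8.89 and 8.92 in TG Ang-II and 8.98 and 9.09 in WT Ang-II, against 8.37 in TG saline and 8.51 in WT saline. All 4 Ang-II arrays thus lay above both saline arrays for Trim25, which was not so for Isg15 itself.

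Among the RNA-binding Ifit genes, Ifit2 was read by 2 probes. The probe used for the gene gave log2 levels of 8.99 and 9.41 on the TG Ang-II arrays, 8.70 and 8.78 on the WT Ang-II arrays, 9.11 on the TG saline array and 9.07 on the WT saline array. Both TG arrays lay above both WT arrays under Ang-II, and under saline TG minus WT was 0.03 ± 0.25. The second probe gave 9.10 and 9.27 in TG Ang-II, 8.80 and 8.79 in WT Ang-II, 8.91 in TG saline and 8.98 in WT saline, again with TG above WT under Ang-II. On the gene's probe TG minus WT under Ang-II was 0.46 ± 0.18 (95% interval 0.03 to 0.89), a 1.37-fold higher level in TG that did not pass the threshold (adjusted p = 0.205 in limma). On the second probe it was 0.39 ± 0.13, with an unadjusted limma p of 0.027.

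The 2 Ifit3 probes disagreed. The brighter probe, used for the gene, had log2 levels of 9.93 and 9.98 in TG Ang-II, 9.69 and 9.69 in WT Ang-II, 9.64 in TG saline and 10.06 in WT saline. By it, TG lay above WT under Ang-II and WT above TG under saline. The dimmer probe had 5.95 and 5.96 in TG Ang-II, 6.45 and 6.41 in WT Ang-II, 6.30 in TG saline and 7.06 in WT saline, so by it TG lay below WT under both treatments. TG minus WT under Ang-II was 0.27 ± 0.12 on the brighter probe (adjusted p = 0.275 in limma) and -0.48 ± 0.12 on the dimmer one (adjusted p = 0.0896 in limma). The dimmer probe was the only one of the 9 kept member probes to pass in any comparison. Averaged over genotypes, it fell by 0.49 on the log2 scale with Ang-II (SE 0.11, adjusted p = 0.0292 in limma), in a comparison where 19.2% of all probes passed, and the brighter probe gave -0.03 ± 0.11. Its call was lost without any 1 of the 4 Ang-II arrays (adjusted p from 0.0539 to 0.0816) and with 2 other settings given under the processing. Mouse Ifit3 has a near-identical copy, Ifit3b, for which no probe was named, so which copy each probe reads is uncertain.

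For Ifit1 the single probe gave log2 levels of 4.58 and 4.70 in TG Ang-II, 4.76 and 4.55 in WT Ang-II, 4.76 in TG saline and 4.52 in WT saline. The lowest level detected on an array was 5.54 to 5.69, so Ifit1 was not well above background on any array and has no difference to report.

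The transcription factor Irf7 was near the detection limit. Levels were 5.70 and 5.10 in TG Ang-II, 5.93 and 5.93 in WT Ang-II, 5.75 in TG saline and 6.36 in WT saline. One TG Ang-II array did not detect it (detection p 0.0737) and the other just did (detection p 0.00962). Under Ang-II both TG arrays lay below both WT arrays, by -0.53 ± 0.21, with an adjusted p of 0.220 in limma. TG minus WT under saline was -0.61 ± 0.30 (adjusted p = 0.447 in limma).

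Oasl2, of the oligoadenylate synthetase family, was read by 1 kept probe of 3. On the log2 scale it stood at 9.77 and 9.66 in TG Ang-II, 9.53 and 9.59 in WT Ang-II, 9.68 in TG saline and 9.97 in WT saline. The TG arrays lay above the WT arrays under Ang-II, by 0.15 ± 0.13 (adjusted p = 0.547 in limma), and WT saline was above all others. In WT, Ang-II minus saline was -0.41 ± 0.16 (adjusted p = 0.158 in limma).

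Bst2, the surface protein tetherin, ran against the other members. Log2 levels were 7.35 and 7.63 in TG Ang-II, 7.42 and 7.94 in WT Ang-II, 7.78 in TG saline and 7.28 in WT saline. Here WT saline was the lowest array, and the Ang-II arrays of the genotypes overlapped. WT Ang-II minus WT saline was 0.39 ± 0.26 and TG minus WT under saline was 0.49 ± 0.30, with adjusted p-values of 0.375 and 0.548 in limma.

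With Ang-II in WT aorta, 0 of 7 member genes passed (limma, Benjamini-Hochberg adjusted p under 0.05), where 8.72% of all 9837 genes did. At an unadjusted limma p under 0.05, 0 members were higher and 3 lower (Isg15, Usp18 and Oasl2). That unadjusted cut held 1398 higher and 1237 lower of all 9837 genes. The median log2 difference of the members was -0.41, against -0.05 over all genes. Both WT Ang-II arrays lay below the WT saline array for 6 of 7 members, as they did for 45.1% of all genes, and above it for Bst2 alone (36.8% of all genes). Every one of these differences rests on the single WT saline array. Of 10 smooth muscle markers, 6 were highest on that array, against 23.2% of all genes. Their mean level, centred on its mean over the 6 arrays, was 0.202 on WT saline and 0.157 on TG saline. It was 0.093 and 0.18 on TG Ang-II, and low only on WT Ang-II (-0.292 and -0.34). The members' mean, centred in the same way, was 0.315 on WT saline and negative on all other arrays. Fat cell markers were lowest on the WT saline array, and 8 of 8 passed as higher with Ang-II in WT. The part of tissue composition in the members' values was not tested.

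In TG aorta, where the WT saline array plays no part, Ang-II also moved 0 of 7 members past the threshold (limma), with 6.78% of all genes called. At an unadjusted limma p under 0.05 there were 0 members, against 1193 higher and 1038 lower of all 9837 genes. The members' differences ran from -0.35 ± 0.26 for Irf7 and -0.29 ± 0.26 for Bst2 to 0.18 ± 0.24 for Usp18 and 0.31 ± 0.15 for Ifit3. Their median was 0.03, against -0.06 over all genes. Both TG Ang-II arrays lay above TG saline for 2 members (33.5% of all genes) and below it for 2 (46.1% of all genes), and they straddled it for 3. Isg15 gave -0.00 ± 0.16 with a 95% interval from -0.39 to 0.38, so a change within that interval was not excluded. For Usp18 the interval ran from -0.41 to 0.77.

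Averaged over genotypes, 0 of 7 members passed the Ang-II comparison (limma), against 17.5% of all genes. At an unadjusted p under 0.05 there was 1 member lower, Isg15, at -0.32 ± 0.11. That cut held 1637 higher and 1684 lower of all 9837 genes. The median of the members was -0.19, against -0.06 over all genes.

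Between genotypes under Ang-II, 0 of 7 members passed (limma), against 5.35% of all genes. At an unadjusted limma p under 0.05, 1 member was higher (Ifit2) and 1 lower (Irf7). So were 1031 and 1066 of all 9837 genes, in that order. The TG arrays lay above both WT arrays for Ifit2, Ifit3 and Oasl2 (26.6% of all genes did so), below both for Irf7 (26.5% of all genes), and overlapped for Isg15, Usp18 and Bst2. The median of the members was 0.00 and that of all genes 0.00. Heart muscle markers were higher in TG here for 10 of 10 genes, and their part in these values was not tested.

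Under saline, TG against WT called 0 of 7 members (limma) and 0.163% of all genes. Unadjusted, 0 members were higher and 2 lower, Usp18 and Isg15, where 705 of all 9837 genes were higher and 645 lower. The median of the members was -0.41, against 0.01 over all genes. The interaction, the TG response minus the WT response, called 0 of 7 members and 1.26% of all genes, with a median of 0.44 for members and -0.01 for all genes. Unadjusted, 3 members had a higher response in TG: Usp18 at 1.05 ± 0.34, Ifit3 at 0.68 ± 0.21 and Isg15 at 0.64 ± 0.22. Their adjusted p-values were 0.254, 0.243 and 0.280 in limma. At the same unadjusted cut, 651 of all 9837 genes had a higher response in TG and 678 a lower one. These 2 comparisons share the WT saline array with the WT response, so their values for one gene are not independent of it.

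**Figure D2:**
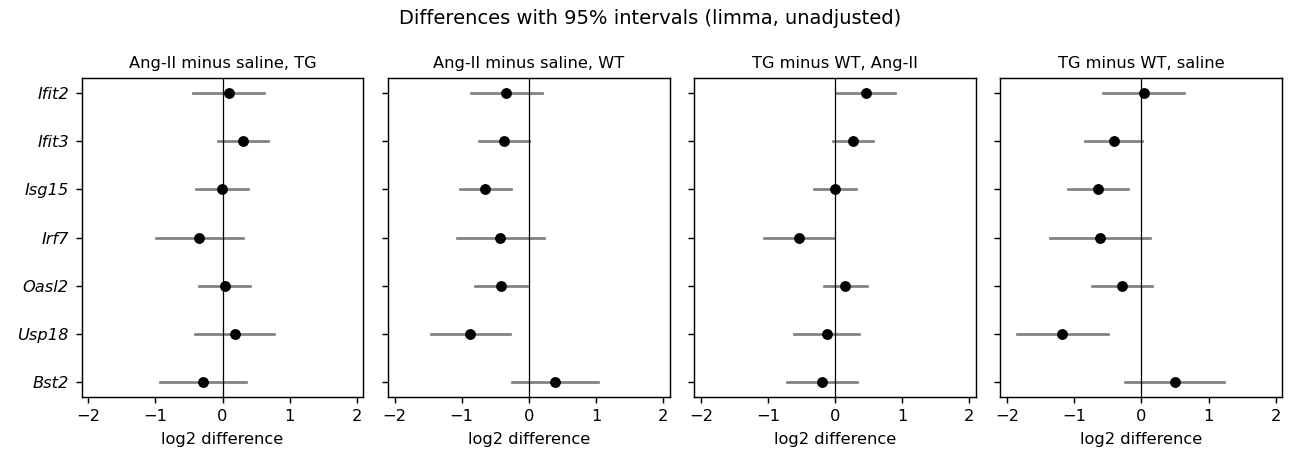
Log2 difference (x axis) of each of the 7 measured members (rows) in 4 comparisons, as points with unadjusted 95% intervals from limma. Usp18 under saline, at -1.18, is the farthest from 0, and none of the 28 differences shown passed an adjusted p under 0.05.

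Upstream of the members, the interferon genes themselves were not detected on most arrays. Of 20 listed interferons, 19 had probes, and of their 32 probes 30 were detected on no array and 2 on 1 array each, so none could be tested. Of the 6 receptor genes, 5 were measured. The Ifnar1 probe, for a chain of the type I receptor, was detected on no array, and the other chain, Ifnar2, gave 6.43 and 6.27 in TG Ang-II, 6.83 and 6.86 in WT Ang-II, 6.70 in TG saline and 6.67 in WT saline. TG Ang-II was the lowest group on this probe, with TG minus WT at -0.49 and an adjusted p of 0.0982 in limma. A dimmer Ifnar2 probe did not share that order, with WT saline its lowest array and TG minus WT under Ang-II at -0.17 (adjusted p = 0.631 in limma).

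The interferon gamma receptor chain Ifngr2 rose with Ang-II in both genotypes on its brightest probe. Its log2 level was 9.24 and 9.54 in TG Ang-II, 9.61 and 9.57 in WT Ang-II, 8.43 in TG saline and 8.57 in WT saline. Every Ang-II array lay above both saline arrays, and the difference was 0.96 ± 0.19 in TG and 1.02 ± 0.19 in WT (adjusted p of 0.0387 and 0.0306 in limma). Both other Ifngr2 probes missed the threshold, with -0.46 and -0.27 in TG and 0.21 and -0.14 in WT. Ifngr1 gave 0.17 in TG and 0.11 in WT, and Il10rb, shared by the interferon lambda and interleukin-10 receptors, gave 0.12 in TG and 0.21 in WT, with no call on the gene's probe. The dimmer Il10rb probe, not well above background in saline, was at least 1.34-fold higher in WT Ang-II than in WT saline (adjusted p = 0.0277 in limma) and missed the threshold in TG (adjusted p = 0.0984 in limma). Ifnlr1, the specific chain of the lambda receptor, fell in the average of both genotypes by 0.50 on the log2 scale (SE 0.12, adjusted p = 0.0399 in limma). Its dimmer probe, not well above background on any Ang-II array, was at least 1.26-fold lower with Ang-II in TG and at least 1.15-fold lower in WT (adjusted p of 0.0191 and 0.0211 in limma).

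Of 16 measured signal transduction genes, 2 rose and 0 fell with Ang-II in TG, and 3 rose and 0 fell in WT. Of all genes, 5.23% rose and 1.56% fell in TG, and 6.09% rose and 2.63% fell in WT. Medians were -0.04 and -0.03, against -0.06 and -0.05 over all genes. Irf8, a factor of myeloid cells, had 7.08 and 6.98 in TG Ang-II and 6.90 and 6.90 in WT Ang-II, against 5.95 in TG saline and 5.89 in WT saline. It rose in TG by 1.08 ± 0.15 and in WT by 1.02 ± 0.15 (adjusted p of 0.0173 and 0.0183 in limma). Socs3, a feedback inhibitor of cytokine receptors, rose by 0.85 in TG and 0.76 in WT, and Ptpn6, a phosphatase of blood cells, rose by 0.90 in WT. Stat2 and Irf9 did not pass: Stat2 gave -0.06 in TG and -0.29 in WT, and Irf9 gave 0.21 in TG and -0.07 in WT.

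Of 12 measured nucleic acid sensors and adaptors, 2 rose in each genotype and 0 fell, against 5.23% of all genes that rose in TG and 6.09% in WT. Tlr7, an endosomal receptor for single-stranded RNA, had 6.89 and 7.04 in TG Ang-II, 6.72 and 6.50 in WT Ang-II, 5.68 in TG saline and 5.93 in WT saline. It rose by 1.29 ± 0.18 in TG (adjusted p = 0.0163 in limma) and had 0.69 ± 0.18 in WT (adjusted p = 0.0711 in limma). Unc93b1, which carries such receptors to the endosome, rose by 0.73 in TG and 1.05 in WT, and Sting1, the adaptor for cytosolic DNA sensing, rose by 0.86 in WT.

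Among 30 measured other type I interferon-stimulated genes, 2 rose and 0 fell with Ang-II in TG, and 2 rose and 1 fell in WT, with medians of 0.00 and -0.04. Of all genes 5.23% rose in TG and 6.09% in WT, so these counts are near the background. Rsad2 (viperin), an antiviral enzyme, was called in both. Its log2 level was 7.68 and 7.59 in TG Ang-II, 8.26 and 8.48 in WT Ang-II, 6.71 in TG saline and 7.03 in WT saline, with no overlap between treatments or, under Ang-II, between genotypes. Rsad2 rose by 0.93 ± 0.17 in TG and 1.34 ± 0.17 in WT (adjusted p of 0.0351 and 0.0119 in limma), and TG was lower than WT under Ang-II by -0.74 ± 0.14 (adjusted p = 0.0442 in limma). The difference between these responses did not pass (-0.42 ± 0.24, adjusted p = 0.526 in limma).

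Ifi27l2a, an interferon-induced gene of the Ifi27 family, rose in WT by 0.82 ± 0.16 (adjusted p = 0.0369 in limma), with 13.05 and 13.19 in TG Ang-II, 13.51 and 13.44 in WT Ang-II, 12.88 in TG saline and 12.66 in WT saline. Dtx3l, a ubiquitin ligase, was not well above background in TG saline and was at least 4.36-fold higher in TG Ang-II on its brighter probe (adjusted p = 0.00809 in limma), while its other probe gave -0.30 (adjusted p = 0.525 in limma). Mx2, an antiviral GTPase, was not well above background on either WT Ang-II array. It was at least 1.38-fold higher in TG Ang-II than in WT Ang-II (adjusted p = 0.0315 in limma), and at least 1.4-fold lower in WT Ang-II than in WT saline (adjusted p = 0.04 in limma).

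Trim30a, a regulator of innate signalling, separated the genotypes under both treatments. Its log2 level was 6.97 and 7.17 in TG Ang-II, 8.27 and 8.18 in WT Ang-II, 6.84 in TG saline and 8.0 in WT saline, with every TG array below every WT array. For TG against WT under saline this list had 0 calls (limma), where 0.163% of all genes were called. Before adjustment, 1 of its genes was higher and 5 lower at a limma p under 0.05, against 705 and 645 of all 9837 genes. Under Ang-II the list had 1 higher and 2 lower calls, where 5.35% of all genes were called (limma). Trim30a was among these, with Mx2 and Rsad2. TG minus WT was -1.16 ± 0.14 under Ang-II (adjusted p = 0.0111 in limma) and -1.16 ± 0.19 under saline (adjusted p = 0.101 in limma).

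The genes of the interferon gamma GTPases and antigen processing list were ordered differently from the members. Of 23 measured, 0 rose and 1 fell with Ang-II in TG, with a median of -0.20, and 2 rose and 1 fell in WT, with a median of 0.15. Among all genes, 5.23% rose and 1.56% fell in TG, and 6.09% rose and 2.63% fell in WT. Under saline, 20 of 23 were higher in TG than in WT (5110 of all 9837 genes were), with 0 called and a median of 0.28. The TG saline array was the highest for 10 of 23, against 22.6% of all genes. The interaction was negative for 21 of 23 (5050 of all 9837 genes), with 0 called in limma and a median of -0.48. At an unadjusted limma p under 0.05, 7 of the 23 were lower, against 678 of all 9837 genes. The interaction rests on the lone saline arrays. Cxcl9, a chemokine induced by interferon gamma, had 6.88 and 6.63 in TG Ang-II, 6.99 and 7.18 in WT Ang-II, 6.87 in TG saline and 5.67 in WT saline. WT saline alone was low for Cxcl9, and it rose in WT by 1.42 ± 0.19 (adjusted p = 0.0127 in limma) and gave -0.12 ± 0.19 in TG (adjusted p = 0.748 in limma). Psmb9, a subunit of the immunoproteasome, rose in WT by 0.77 (adjusted p = 0.0453 in limma). Tapbp, which loads peptide on MHC class I, fell by 0.93 in TG and by 0.78 in WT on its brighter probe, and its other probe gave -0.18 and 0.45.

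**Figure D3:**
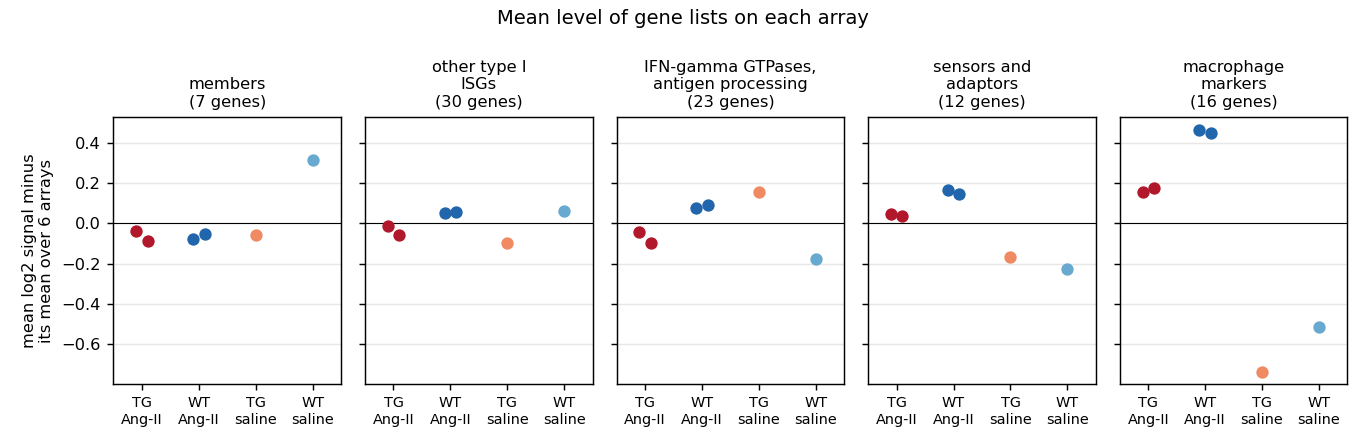
Mean log2 signal of 5 gene lists on each array, minus the list's mean over the 6 arrays (y axis), by group (x axis). The members peak at WT saline (0.315), the interferon gamma list is lowest there (-0.177), and macrophage markers are higher on the 4 Ang-II arrays than on the saline arrays.

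Macrophages both sense nucleic acids and respond to interferon, and their markers moved with treatment. Of 16 measured macrophage and monocyte markers, 10 rose and 0 fell with Ang-II in TG (5.23% of all genes rose), and 11 rose and 0 fell in WT (6.09% of all genes rose), with medians of 0.93 and 0.98. The summed linear level of the 16 was 14728 to 15126 on the TG Ang-II arrays, 17302 to 18190 on the WT Ang-II arrays, 7692 for TG saline and 9639 for WT saline. The members' mean did not follow this order, and the part of these cells in the members' values was not tested.

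Markers of plasmacytoid dendritic cells, which make much interferon alpha, were measured for 3 of 8 genes. Siglech, the surface lectin of these cells that some macrophages also carry, rose by 1.06 ± 0.18 in TG (adjusted p = 0.0265 in limma), and was at least 2.51-fold higher in WT Ang-II than in WT saline, where it was not well above background (adjusted p = 0.0127 in limma). Cox6a2, also a subunit of striated muscle mitochondria, rose by 4.58 in TG and fell by 2.45 in WT (adjusted p of 0.00471 and 0.0149 in limma). Of 14 lymphocyte markers 2 were measured, the CD3 chains Cd3e and Cd3d, with a summed linear level of 196 to 210 in TG Ang-II, 138 to 158 in WT Ang-II, 210 in TG saline and 262 in WT saline. Cd3d was not well above background in TG saline or on either WT Ang-II array. WT saline was the highest array for both CD3 chains, as it was for 5 of 7 members and 6 of 10 smooth muscle markers, and their part in the members' values was not tested.

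Outside these lists, 5 genes had profiles closest to the mean of the 7 members over the 6 arrays, by the root mean square difference of centred log2 values among 9293 candidates. They were Pold4 (0.015), Atxn10 (0.034), Sf3b5 (0.038), Cct3 (0.041) and Metrn (0.043). Pold4, a subunit of DNA polymerase delta, had 8.68 and 8.63 in TG Ang-II, 8.65 and 8.64 in WT Ang-II, 8.68 in TG saline and 9.01 in WT saline. All 5 were highest on the WT saline array, as the member mean was, which follows from how they were chosen. Of the members, which themselves make up that mean, Oasl2 was nearest to it (0.069), followed by Isg15 (0.109) and Ifit3 (0.135). Bst2 was farthest (0.334).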

How the data were processed

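Per the file headers, the deposited raw table holds, for each probe and array, the mean bead intensity on a linear scale, its standard error over beads, the count of beads, and a detection p-value, whose smallest step is 1 in 936. The table of values deposited beside it is on the log2 scale, with a median of 4.84 on each array, made by a method not given in the sources used. The submitters' processing notes name GenomeStudio 2011.1 and limma 3.22.1.

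Background was removed from the intensities by neqc, from their detection p-values, followed by quantile normalization (offset 16), in limma 3.58.1 (R 4.3.3). All 271686 deposited log2 values equal the result within 1e-08. Symbols came from the platform annotation: 34885 probes had 1 symbol, 18 several and 10378 none here. A gene was represented by its kept probe with the highest mean. The 4 group means were fitted to the 6 arrays in limma (lmFit, eBayes; 2 residual and 3.75 prior degrees of freedom), with Benjamini-Hochberg adjustment over the 16749 kept probes. A fold against a group not well above background is a lower bound, taken from the lowest detected level. Alternatives changed the background correction, offset, detection filter, probe averaging, prior, arrays and replicate block. The script was tested on simulated data. The replicate numbers of the Ang-II arrays were not taken as pairs.

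The members and gene lists were chosen with earlier results of these data known. Named genes are all members, up to 3 called genes per list and comparison with the largest difference, the measured receptors, and the 5 closest profiles. Stat2, Irf9, Uba7, Ube2l6 and Cd3e fall outside this rule and were chosen after their values were seen. The genes of the marker lists of macrophages and of vessel, fat, red and heart cells are not named. For some of these lists, medians and mean or summed levels are given beside the counts.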

Additional observations from a re-analysis of the deposited data

Results flagged for a closer look

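No member gene had a response that differed between genotypes past the threshold, and groups of 1 or 2 arrays are too small for a search for single outlying samples. Among the lists beside them, 4 held genes whose Ang-II response differed between TG and WT by the interaction test in limma, where 1.26% of all genes passed. Heart muscle markers passed for 9 of 10 genes, all with a higher response in TG. Red cell markers passed for 5 of 6 and fat cell markers for 4 of 8, all with a lower response in TG. Of the plasmacytoid dendritic cell markers 1 of 3 passed, Cox6a2, which striated muscle also expresses.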

How the results depend on the processing

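In the fit reported above 0 member genes passed in each of the 6 comparisons. For Ang-II in WT, other settings called 1 member without background correction (Usp18, adjusted p = 0.00775), 2 with an offset of 50 (Isg15 and Usp18, 0.0476 and 0.0283), 2 with detection required on all 6 arrays (0.0346 and 0.0474), 1 with the probes of a gene averaged (Isg15, 0.0429) and 1 with a trended robust prior (Usp18, 0.0147), all lower and all resting on the WT saline array. The replicate block, with the replicate number of the Ang-II arrays as a covariate, called 1 (Usp18, adjusted p = 0.0358) and no member elsewhere; same-numbered arrays deviated together with r = 0.115, over only 2 pairs. TG against WT under saline called 1 member without background correction and 1 with the trended prior (Usp18, 0.0108 and 0.0152). Leaving out 1 Ang-II array called 0 to 1 members in the average response (Irf7, -0.54, adjusted p = 0.0434, without TG replicate 1) and 0 to 0 in every other comparison. The average-response call of the dimmer Ifit3 probe was lost without background correction (0.0519) and with the trended prior (0.0697). Of 463 member differences under these alternatives, 438 kept direction and side of the threshold, 11 passed only under the alternative, and 14 turned sign, none of which had passed. With probes averaged, Ifit3 turned to -0.019 in TG and -0.10 for TG against WT under Ang-II, and Ifit2 to -0.015 for TG against WT under saline. With 1 Ang-II array left out, the log2 difference spanned 0 for Oasl2 (-0.023 to 0.084), Ifit2 (-0.12 to 0.30) and Isg15 (-0.02 to 0.016) in the TG response, for Bst2 (-0.075 to 0.18) in the average, for Isg15 (-0.063 to 0.062), Usp18 (-0.32 to 0.061) and Bst2 (-0.45 to 0.066) for TG against WT under Ang-II, and for Irf7 (-0.22 to 0.38) in the interaction. The share of all probes called ran from 1.34% to 18% for Ang-II in WT, 1.33% to 13.8% in TG, 4.65% to 28.5% in the average, 0.848% to 11.2% for TG against WT under Ang-II, 0.00221% to 4.39% under saline and 0.133% to 4.63% in the interaction. The cause of these changes was not tested. Irf7 lay at the detection limit, and 1 array per saline group limits every comparison with saline.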
